A study of Mus musculus with 8 samples.

Results

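The genes described here are 40 genes of the cell cycle and of DNA replication, chosen by name from the 41591 gene IDs counted in whole mouse ovaries. They comprise 10 S phase genes, 13 mitosis genes, 8 cyclins, 4 cyclin-dependent kinases (CDKs), 3 CDK inhibitors and 2 transcription factors. RNA was sequenced from ovaries of 8 female C57BL/6 mice about 3 weeks old. All 8 received 4 IU of eCG, a gonadotropin that makes follicles grow, and 48 h later 5 IU of hCG, which acts as the ovulatory LH surge, and ovaries were taken 12 h after hCG. The 4 controls are littermates labelled wild-type and positive for Pgr-Cre, a recombinase under the control of the progesterone receptor gene. The 4 double knockouts (DKO) are labelled Insr-Igf1r double knockout and lack the insulin receptor and the insulin-like growth factor 1 receptor conditionally. The labels name the Cre driver for the controls only. No ovary from before hCG or from another time was analysed here, so the values compare genotypes at 1 time and give no change over time.

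Cells copy their DNA in S phase and separate the copies in mitosis. Cyclins switch on CDKs, which drive both steps, and CDK inhibitors hold them back. Active G1 kinases release E2F transcription factors, which turn on S phase genes, and later FOXM1 and its partners turn on mitotic genes. Granulosa cells of growing follicles divide under FSH, which raises cyclin D2. After the LH surge the granulosa cells stop dividing and become luteal cells, while CDK inhibitors such as p27 (Cdkn1b) accumulate. IGF1 and insulin signalling is known to favour entry into S phase in many cells.

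S phase and mitotic genes differed in the letters of their promoters, and 4 stretches of 250 bases before the annotated start are shown. Of the letters defined below, Mcm6 holds those of E2F, and Ube2c and Cdc20 hold those of CHR. Rrm2, which has the largest fitted difference among the 40 genes, holds neither, like Pcna, Rrm1 and Tyms among the S phase genes. Sequences are RefSeq's on GRCm38.p6, written 5′ to 3′ on the gene's strand. Capitals mark 3 kinds of letters: the E2F letters TTTCCCGC, TTTCGCGC, TTTGCCGC or TTTGGCGC, the cell cycle homology region (CHR) letters TTTGAA or TTCGAA, and the CCAAT box, each searched on both strands. Rrm2 (chr12:24708004-24708253, plus strand) and Mcm6 (chr1:128359706-128359955, minus strand) stand for S phase. Ube2c (chr2:164769679-164769928, plus strand) and Cdc20 (chr4:118437344-118437593, minus strand) stand for mitosis.
Rrm2: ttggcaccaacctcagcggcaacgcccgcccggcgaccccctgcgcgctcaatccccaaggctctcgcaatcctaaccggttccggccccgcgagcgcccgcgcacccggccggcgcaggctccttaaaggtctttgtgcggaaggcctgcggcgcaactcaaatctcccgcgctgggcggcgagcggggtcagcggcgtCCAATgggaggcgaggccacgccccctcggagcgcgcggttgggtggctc
Mcm6: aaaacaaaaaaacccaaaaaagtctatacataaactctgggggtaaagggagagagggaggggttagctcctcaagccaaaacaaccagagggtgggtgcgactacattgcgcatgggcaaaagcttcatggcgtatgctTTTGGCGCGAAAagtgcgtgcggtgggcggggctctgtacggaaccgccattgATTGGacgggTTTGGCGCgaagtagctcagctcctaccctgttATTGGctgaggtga
Ube2c: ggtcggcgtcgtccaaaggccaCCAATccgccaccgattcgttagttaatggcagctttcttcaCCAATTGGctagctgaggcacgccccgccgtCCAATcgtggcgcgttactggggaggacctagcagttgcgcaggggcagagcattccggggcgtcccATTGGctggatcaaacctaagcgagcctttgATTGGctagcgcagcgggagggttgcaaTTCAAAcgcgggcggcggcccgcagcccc
Cdc20: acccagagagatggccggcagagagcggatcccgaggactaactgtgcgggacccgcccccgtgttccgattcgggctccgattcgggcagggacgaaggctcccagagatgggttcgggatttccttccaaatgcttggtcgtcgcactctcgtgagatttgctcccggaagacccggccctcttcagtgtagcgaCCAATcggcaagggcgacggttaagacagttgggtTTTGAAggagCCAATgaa
The Mcm6 stretch held 3 E2F matches, 2 of them overlapping, and 2 CCAAT boxes. The Ube2c stretch held 1 CHR match and 6 CCAAT boxes, 2 of them overlapping. In Cdc20 there were 1 CHR match and 2 CCAAT boxes, and in Rrm2 there was 1 CCAAT box and neither of the others. Over windows from 250 bases before to 50 bases after the start, 32 of the 40 genes had an entry. CHR letters stood in 11 of 12 mitosis genes (91.7%) and in 2 of 9 S phase genes (22.2%), where 21.7% of 27025 genes hold them. E2F letters stood in 4 of 9 S phase genes (44.4%) and in 0 of 12 mitosis genes, where 2.6% of all genes hold them. CCAAT letters were in 25 of the 32 (78.1%) and in 41.1% of all genes. A match is a run of letters and was not tested for binding.

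The targeted genes were measured first. Insr stood at 162, 158, 140 and 160 CPM in controls 1 to 4 and at 112, 114, 130 and 148 CPM in DKO 1 to 4. CPM are counts scaled to a common library size, so that libraries of different depth can be compared. DKO 4 lay inside the control range and the other DKO libraries below it. Its log2 fold change, DKO over control, was -0.30 ± 0.11 (SE), with an adjusted p of 0.226 in edgeR's quasi-likelihood test. Igf1r stood at 263.3, 246, 196 and 238 CPM in controls and at 203, 200, 205 and 247 CPM in DKO. Its groups overlapped, with a log2 fold change of -0.14 ± 0.12 and an adjusted p of 0.639 (edgeR). The tables sum reads over all exons of a gene and the deleted exons are not named in the labels, so these values do not show how far the deletion went. Libraries held 33145056 to 39257648 counts. Markers of oviduct and ciliated epithelium summed to 1609 CPM in control 1 and 993 CPM in DKO 2, and to 92.3 to 141 CPM in the other 6 libraries, so the counts below were repeated without both. DKO 1 and 2 stood apart in the beta globin gene Hbb-bs, at 0.609 and 1.06 CPM beside 105 to 442 CPM in the other 6 libraries, while the alpha globin gene Hba-a1 stood at 103 and 248 CPM there and at 73.6 to 171 CPM in the others. What sets these 2 libraries apart was not tested. Control 3 stood apart by gene length: among genes of at least 5 CPM, its median log2 deviation from the mean of the 8 libraries was 0.201 for the shortest of 4 equal classes of exon length and -0.203 for the longest.

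Not 1 of the 39 testable cell cycle genes differed between DKO and control at an adjusted p under 0.05, the threshold used throughout for a call (edgeR's quasi-likelihood test, adjusted over 16870 genes). The same test called 1.26% of all genes, 0.759% higher and 0.498% lower in DKO. At an unadjusted p under 0.05, 1 of the 39, Rrm2, was lower in DKO, where 6.98% of all genes were lower, 8.43% higher and 15.4% differed in either direction. DESeq2 and limma-voom with sample weights each called 1 of them, again Rrm2, where they called 6.05% and 9.77% of all genes. The fitted difference was below 0 for 35 of the 39, where 53.1% of all genes were below 0. Their median log2 fold change was -0.124, beside -0.0205 over all genes. Without control 3, 28 of the 39 were below 0, where 52.4% of all genes were, and the median was -0.115. S phase and mitosis genes are known to rise and fall together with the share of dividing cells. The genes counted are therefore not independent, and the counts below 0 have no test. Only Mcm2, Ccnd1, Ccnd3 and Cdkn2c had fitted differences above 0.

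The sizes that the data leave room for were small for most of them. For 31 of the 39, the 95% interval of the difference lay within 1.5-fold in both directions. For 38 of the 39 the interval held 0, Rrm2 being the exception. Median log2 fold changes by role were -0.0931 for S phase, -0.13 for mitosis, -0.178 for cyclins, -0.133 for CDKs, -0.309 for CDK inhibitors and -0.147 for transcription factors. These medians are set side by side with no test, and that of the 3 inhibitors turns on control 1, as given below with Cdkn1c. These values do not establish a decrease. If there were one, fewer dividing cells and less RNA in each dividing cell could not be told apart in whole ovary.

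**Figure D1:**
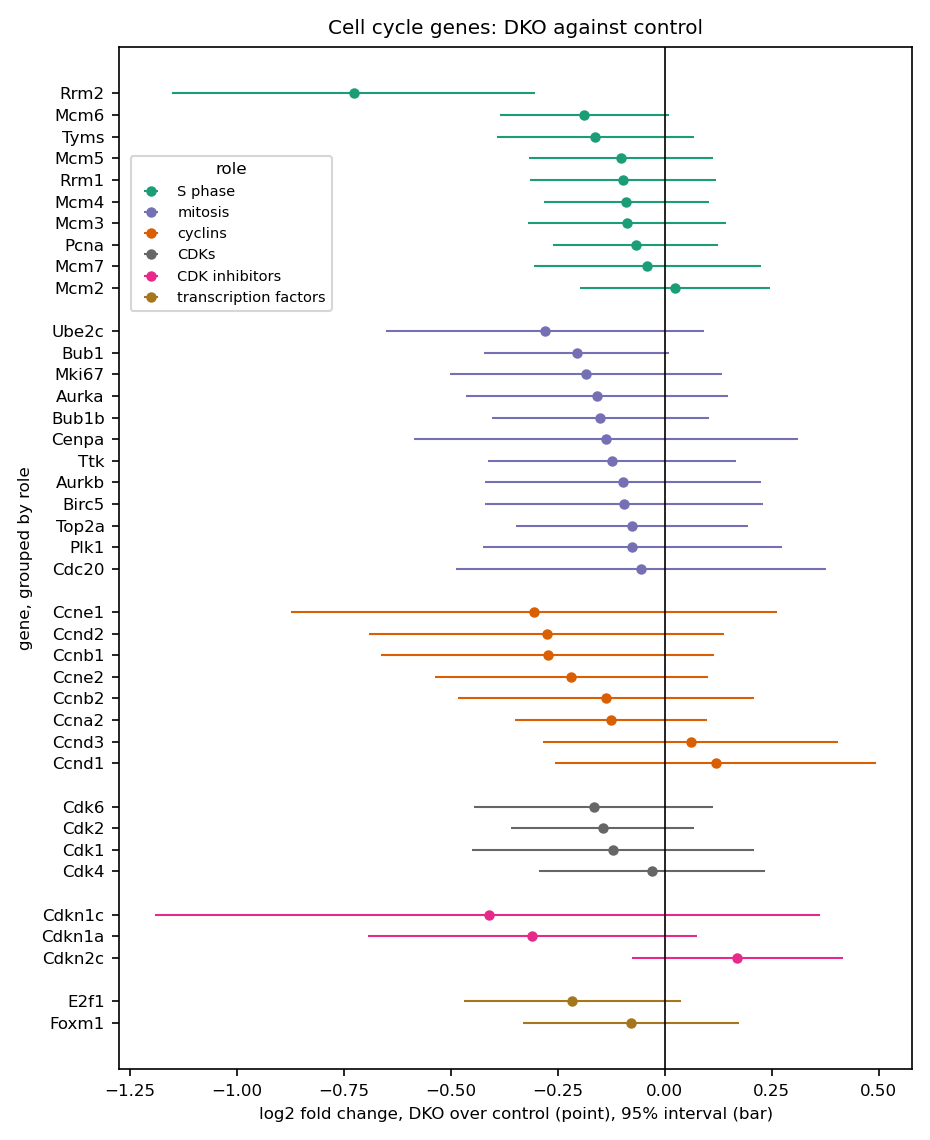
Log2 fold change of each of the 39 tested genes, DKO over control (horizontal axis; point), with its 95% interval (bar), grouped and coloured by role. The interval of Rrm2 runs from -1.15 to -0.302, and the intervals of the other 38 cross 0.

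Kif11, which encodes the motor protein that pushes spindle poles apart, had a count of 0 in all 8 libraries. The annotation places it at chr19:37376403-37421859 on GRCm38.p5 and also on a second sequence. Of 1646 genes annotated on more than 1 sequence, 871 (52.92%) were at 0 in all libraries, beside 27.04% of the 39945 genes on 1 sequence. The replication helicase gene Cdc45 and the ubiquitin ligase gene Skp2 were at 0 in the same way. No level of Kif11 can be read from these tables. Cdkn1a is also annotated on 2 sequences, so its level, from 12071 counts over the 8 libraries, is uncertain.

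Per exon length, Cdk4 was the most abundant of the 39, at a mean level of 217 RPKM (CPM per kilobase of exon) over the 8 libraries. It was followed by Pcna at 77.9 RPKM and Ube2c at 65.1 RPKM, and the lowest mean level was that of Cdk6, at 3.85 RPKM. Cdk4 and Cdk6 both partner D-type cyclins, and their levels were far apart in every library. Among the cyclins, Ccnd3 (39.4 RPKM) and Ccnd2 (36.0 RPKM) led, and Ccne1 (4.70 RPKM) and Ccne2 (5.53 RPKM) were lowest. Of the CDK inhibitors, Cdkn1a reached 20.7 RPKM, Cdkn2c 12.4 RPKM and Cdkn1c 6.00 RPKM. Of the 38 pairs of neighbours in this order, 36 overlapped between libraries, and Cdk4 and Pcna, and Ube2c and Ccnd3, did not. Pseudogenes of Pcna, Tyms, Ccnb1, Ccnb2 and Ccnd3 are named in RefSeq, and how reads matching several places were counted is not recorded, so those levels are less certain.

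**Figure D2:**
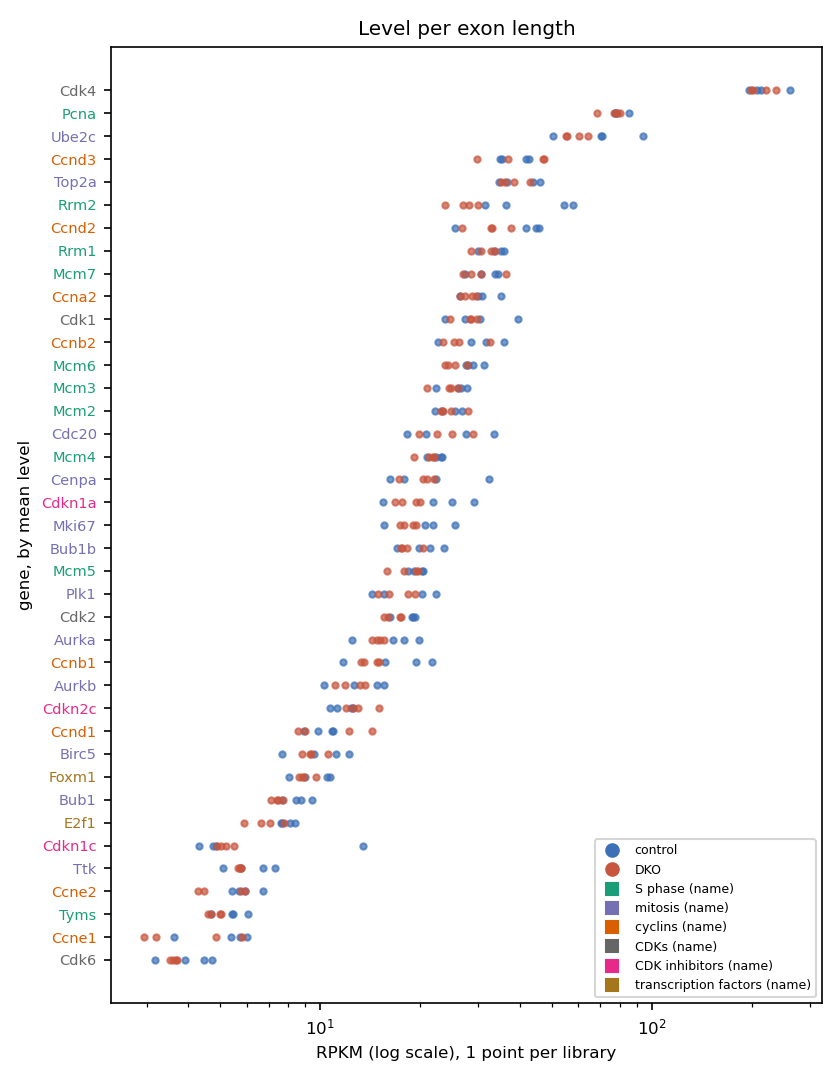
Level of each of the 39 genes in RPKM (horizontal axis, log scale), 1 point per library, blue for control and red for DKO, with gene names coloured by role and ordered by mean level. Mean levels run from 3.85 RPKM for Cdk6 to 217 RPKM for Cdk4, and control and DKO points lie among each other except for Rrm2.

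Among the S phase genes, Rrm2 stood out. Rrm2 (chr12:24708254-24714146, plus strand) encodes the small subunit of ribonucleotide reductase, the enzyme that makes the building blocks of DNA, and its protein is made in S phase and destroyed in mitosis and G1. It stood at 68.3, 126, 118 and 79.5 CPM in controls 1 to 4 and at 61.3, 65.1, 52.0 and 58.8 CPM in DKO 1 to 4. Every control lay above every DKO library, with controls 1 and 4 close to the DKO range and controls 2 and 3 far above it. Among all genes tested, 9.24% had groups that did not overlap, 3.54% with the controls higher. The mean was 98.0 ± 28.4 CPM in controls and 59.3 ± 5.49 CPM in DKO (SD, n = 4 each), which is a fitted difference of -39.5%. The log2 fold change of Rrm2 was -0.72 ± 0.19 (SE), with a 95% interval of -1.15 to -0.302 and an adjusted p of 0.103 (edgeR), which misses the threshold. DESeq2 gave an adjusted p of 0.0132 and limma-voom with sample weights 0.0155. Over all alternatives the log2 fold change of Rrm2 ran from -0.945 to -0.583, and its adjusted p from 0.0132 to 0.294. Leaving out control 1 alone gave -0.85 and an adjusted p of 0.0413.

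The partner of Rrm2 in the enzyme overlapped between the groups. Rrm1, the large subunit, present through the cell cycle, stood at 143, 140, 119 and 134 CPM in controls and at 134, 114, 123 and 131 CPM in DKO. Control 1 was the highest and DKO 2 the lowest, and the log2 fold change was -0.10 ± 0.097 with an adjusted p of 0.70 (edgeR). Per length, Rrm2 over Rrm1 was 0.873, 1.65, 1.82 and 1.09 in controls and 0.837, 1.05, 0.779 and 0.821 in DKO. Control 1 lay inside the DKO range in this ratio and the other controls above it. With samples reassigned in all 70 ways, the exact permutation p for the ratio was 0.0571 (two-sided), and 0.286 after Benjamini-Hochberg adjustment over the 5 ratios computed, chosen after values were seen (the smallest p the design allows is 0.0286). Rrm2b, the subunit used for DNA repair in resting cells, stood at 25.7, 24.5, 18.9 and 28.3 CPM in controls and at 32.3, 33.7, 25.9 and 27.6 CPM in DKO. DKO 1 and 2 were above all controls, DKO 3 and 4 were inside the control range, and the log2 fold change was 0.29 ± 0.15 (edgeR adjusted p = 0.38).

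The helicase and the clamp differed little. Mcm2 to Mcm7 encode the ring that unwinds DNA at the replication fork, and their log2 fold changes ran from -0.19 (Mcm6) to 0.024 (Mcm2). Mcm6 stood at 124, 138, 122 and 128 CPM in controls and at 123, 106, 113 and 108 CPM in DKO. DKO 1 lay at the lower edge of the control range and the other DKO libraries below it, and the log2 fold change of -0.19 ± 0.089 had an adjusted p of 0.356 (edgeR). The 95% intervals of all 6 Mcm genes lay within 1.5-fold, so a change of the size fitted for Rrm2 lies outside them. Pcna, the sliding clamp of the DNA polymerases, stood at 97.6, 98.3, 107 and 98.6 CPM in controls and at 97.2, 86.4, 98.7 and 101 CPM in DKO. Control 3 was the highest and DKO 2 the lowest, the groups overlapped, and the log2 fold change was -0.067 ± 0.087 (edgeR adjusted p = 0.777). Tyms, which makes thymidylate, had a log2 fold change of -0.16 ± 0.10 (edgeR adjusted p = 0.514).

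**Figure D3:**
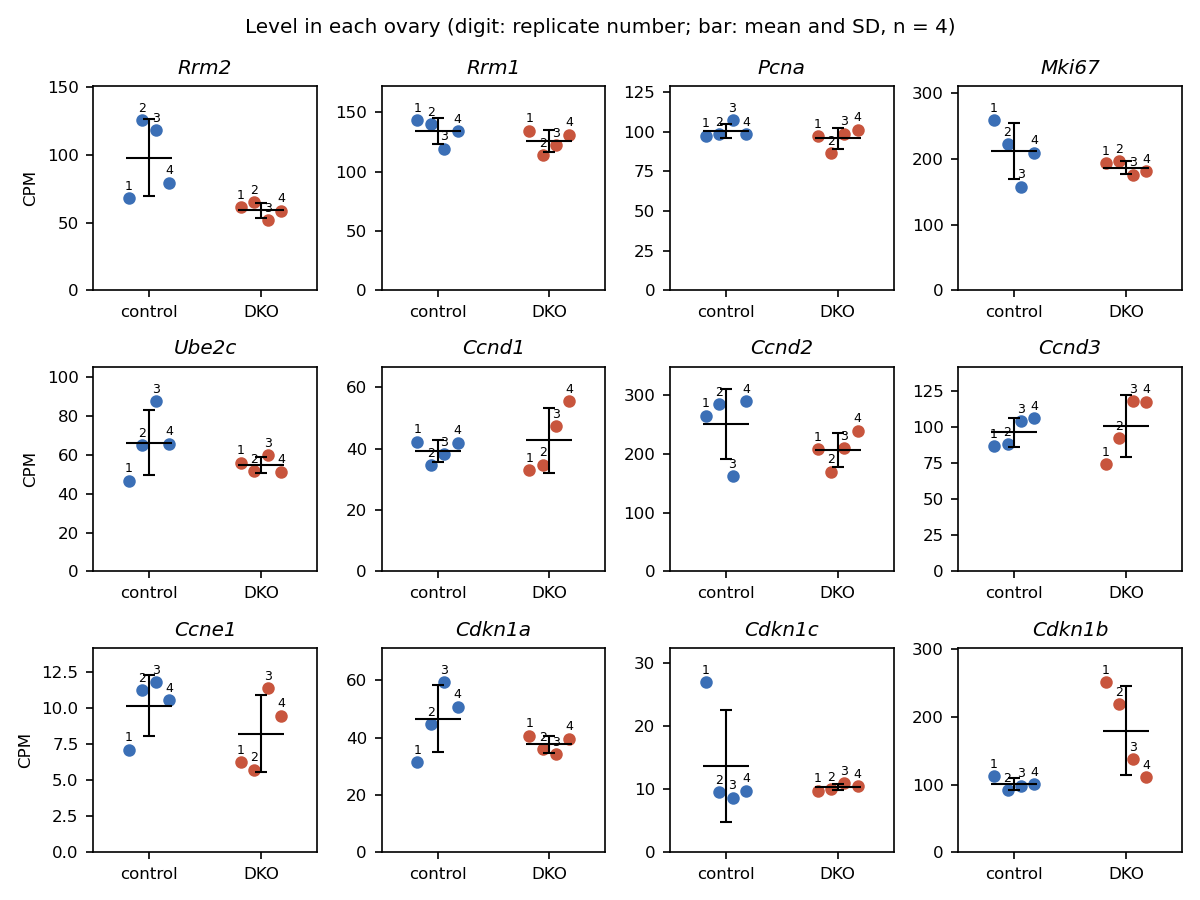
Level of 12 genes in CPM in each ovary, control in blue and DKO in red (vertical axes start at 0; digits are replicate numbers; bars are the mean and SD, n = 4). Rrm2 is the 1 gene of the 12 whose groups do not overlap, and Cdkn1b is high in DKO 1 and 2, at 251 and 218 CPM.

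All 12 tested mitosis genes had fitted differences below 0, from -0.28 (Ube2c) to -0.055 (Cdc20), and not 1 passed the threshold. Mki67, the Ki-67 protein that coats mitotic chromosomes, stood at 258, 222, 157 and 209 CPM in controls and at 193, 196, 176 and 181 CPM in DKO. The DKO libraries lay close together inside the control range, which control 1 bounded above and control 3 below. The log2 fold change of Mki67 was -0.18 ± 0.14, with an adjusted p of 0.606 (edgeR). Top2a, the topoisomerase that untangles sister chromatids, stood at 240, 230, 181 and 192 CPM in controls and at 224, 201.6, 184 and 189 CPM in DKO. All DKO libraries again lay inside the control range, and the log2 fold change was -0.077 ± 0.12 (edgeR adjusted p = 0.819). Bub1, a kinase of the spindle checkpoint, stood at 36.6, 41.1, 33.2 and 38.0 CPM in controls and at 32.3, 30.9, 33.6 and 32.4 CPM in DKO. Controls 1, 2 and 4 were above every DKO library and control 3 was not. Its log2 fold change of -0.21 ± 0.097 had an adjusted p of 0.354, the smallest of this role (edgeR).

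Ube2c, the E2 enzyme with which the anaphase-promoting complex marks cyclins for destruction, stood at 46.8, 65.2, 87.8 and 65.9 CPM in controls and at 56.0, 51.6, 59.9 and 51.4 CPM in DKO. Control 1 was below all DKO libraries and the other controls above them. For Ube2c the log2 fold change was -0.28 ± 0.17, with a 95% interval of -0.652 to 0.0932 and an adjusted p of 0.478 (edgeR). The same order, control 1 low and control 3 high, recurred in Cenpa, the histone of the centromere, which ran from 26.3 CPM in control 1 to 52.2 CPM in control 3. Aurka and Aurkb (Aurora kinases), Birc5 (survivin, a partner of Aurora B), Plk1 (a mitotic kinase), Cdc20 (an activator of the anaphase-promoting complex), Ttk and Bub1b (spindle checkpoint kinases) had log2 fold changes of -0.16 to -0.055. Ttk was the tightest in DKO, at 18.2 ± 0.146 CPM, beside 19.8 ± 3.118 CPM in controls (SD, n = 4 each).

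**Figure D4:**
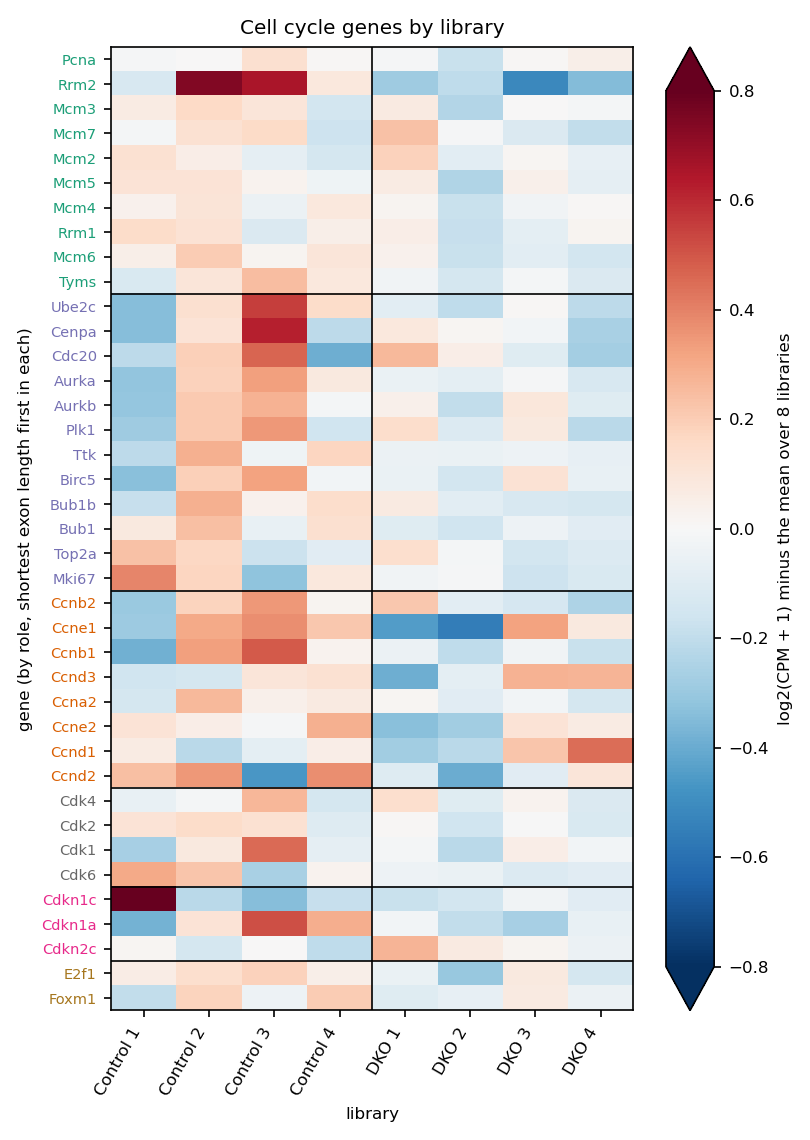
Log2(CPM + 1) of each gene minus its mean over the 8 libraries, genes in rows by role and then by exon length, libraries in columns, with red for higher and blue for lower and colours capped at 0.8. Control 3 is red and control 1 blue over the short genes at the top of the mitosis block.

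Cyclins of G2 and mitosis were spread like the mitosis genes. Ccna2, which acts in S phase and G2, stood at 89.1, 118, 101 and 103 CPM in controls and at 99.3, 92.0, 96.7 and 89.1 CPM in DKO. Controls 2, 3 and 4 were above all DKO libraries, and control 1 was among the lowest; the log2 fold change was -0.12 ± 0.10 (edgeR adjusted p = 0.62). Ccnb1, the cyclin of mitotic entry, stood at 27.1, 45.2, 50.5 and 36.4 CPM in controls and at 34.5, 30.9, 34.9 and 31.4 CPM in DKO. Control 1 was below every DKO library and the other controls above them. Its log2 fold change of -0.27 ± 0.17 had an adjusted p of 0.512, the smallest among the cyclins (edgeR). Ccnb2 had a log2 fold change of -0.14 ± 0.16 (edgeR adjusted p = 0.736).

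The D cyclins, which link growth signals to CDK4 and CDK6, had fitted differences of both signs, with 0 called. Ccnd2, the D cyclin of granulosa cells, stood at 266, 285, 162 and 290 CPM in controls and at 209, 170, 210 and 240 CPM in DKO. Control 3 was the lowest of all 8 libraries and the other controls were above every DKO library. The mean of Ccnd2 was 251 ± 59.9 CPM in controls and 207 ± 28.6 CPM in DKO (SD, n = 4 each), with a log2 fold change of -0.28 ± 0.19 (edgeR adjusted p = 0.538). Ccnd1 stood at 42.3, 34.7, 38.3 and 42.0 CPM in controls and at 33.1, 34.8, 47.4 and 55.6 CPM in DKO. DKO 3 and 4 were above all controls, while DKO 1 was below them and DKO 2 near the lowest. For Ccnd1 the log2 fold change was 0.12 ± 0.17, with an adjusted p of 0.796 (edgeR). Without DKO 4 the log2 fold change of Ccnd1 was -0.033, so its direction rests on 1 library, and without control 1, DKO 1 and DKO 2 it was 0.44 (edgeR adjusted p = 0.251). Ccnd3 stood at 86.9, 88.2, 104 and 106 CPM in controls and at 74.1, 92.3, 118 and 118 CPM in DKO. The DKO libraries again lay at both ends, and the log2 fold change was 0.061 ± 0.16 (edgeR adjusted p = 0.893).

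The E cyclins switch on CDK2 at the start of S phase, and Ccne1 was ordered by the numbers in the sample titles. Control 1, DKO 1 and DKO 2 carry the 3 lowest title numbers, with a gap to the other 5 libraries, and what the numbers mark is not stated. Ccne1 stood at 7.12, 11.2, 11.8 and 10.5 CPM in controls and at 6.27, 5.74, 11.4 and 9.47 CPM in DKO. The 3 low libraries are those with the low title numbers, and the log2 fold change between genotypes was -0.31 ± 0.26 (edgeR adjusted p = 0.631). Pcna and Foxm1 were also lower in all 3 of those libraries than in the other 5, and the split held for 3 of the 39 genes, where it held for 18.2% of all genes tested in either direction. Ccne2 stood at 20.3, 19.5, 18.7 and 23.1 CPM in controls and at 14.7, 15.4, 20.3 and 19.8 CPM in DKO. DKO 1 and 2 were below every control and DKO 3 and 4 inside the control range, with a log2 fold change of -0.22 ± 0.14 (edgeR adjusted p = 0.525). With the 5 libraries of higher title numbers alone, the log2 fold change was -0.082 for Ccne1 and -0.0088 for Ccne2.

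The 4 kinases had fitted differences of -0.17 to -0.030, and each 95% interval lay within 1.5-fold. Cdk1, the kinase of mitosis, stood at 68.2, 86.7, 113 and 78.2 CPM in controls and at 81.3, 70.7, 85.3 and 81.0 CPM in DKO. The control range held all DKO libraries, and the log2 fold change was -0.12 ± 0.15 (edgeR adjusted p = 0.766). Cdk4, the G1 kinase, stood at 294, 303, 370 and 279 CPM in controls and at 337, 288, 313 and 283 CPM in DKO. All DKO libraries lay inside the control range, and the log2 fold change was -0.030 ± 0.12 (edgeR adjusted p = 0.932). Cdk2, the partner of cyclins E and A, stood at 50.1, 51.4, 50.6 and 43.1 CPM in controls and at 46.6, 41.3, 46.2 and 42.4 CPM in DKO. Controls 1 to 3 were above all DKO libraries and control 4 was not, with a log2 fold change of -0.14 ± 0.096 (edgeR adjusted p = 0.53). Cdk6 stood at 54.6, 51.6, 36.7 and 45.0 CPM in controls and at 42.8, 42.5, 40.7 and 41.4 CPM in DKO. Control 3 was below and the other controls above every DKO library, with a log2 fold change of -0.17 ± 0.13 (edgeR adjusted p = 0.592).

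The fitted differences of the CDK inhibitors had both signs. Cdkn1a encodes p21, which stops CDK2 after DNA damage and on differentiation. It stood at 31.5, 44.7, 59.3 and 50.7 CPM in controls and at 40.7, 35.9, 34.2 and 39.6 CPM in DKO. Control 1 was the lowest of all libraries and the other controls were above every DKO library. The log2 fold change of Cdkn1a was -0.31 ± 0.17, with an adjusted p of 0.441 (edgeR). Cdkn1c, which encodes p57, stood at 26.9, 9.50, 8.66 and 9.73 CPM in controls and at 9.77, 10.04, 11.0 and 10.4 CPM in DKO. Control 1, the library with the highest oviduct markers, was far above the other 7, which lay close together. Those 7 include DKO 2, the library next in oviduct markers at 993 CPM. Its log2 fold change was -0.41 ± 0.35 with all libraries (edgeR adjusted p = 0.636) and 0.18 without control 1 and DKO 2 (adjusted p = 0.717), so the direction rests on control 1. The part of oviduct tissue in the Cdkn1c value was not tested. Cdkn2c, which encodes p18 and blocks CDK4 and CDK6, stood at 28.2, 25.3, 27.9 and 24.1 CPM in controls and at 33.9, 29.4, 28.4 and 27.0 CPM in DKO. DKO 1, 2 and 3 were above all controls and DKO 4 inside their range. Its log2 fold change of 0.17 ± 0.11 had an adjusted p of 0.52 (edgeR).

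Both transcription factors had values near each other in the groups. E2f1, an activator of S phase genes, stood at 23.8, 25.2, 26.0 and 23.6 CPM in controls and at 21.96, 18.3, 24.1 and 20.6 CPM in DKO. DKO 3 lay inside the control range and the other DKO libraries below it, with a log2 fold change of -0.22 ± 0.11 (edgeR adjusted p = 0.411). Foxm1, an activator of mitotic genes, stood at 35.2, 45.9, 39.2 and 46.6 CPM in controls and at 37.8, 38.5, 42.6 and 39.1 CPM in DKO. All DKO libraries lay inside the control range, and the log2 fold change was -0.079 ± 0.11 (edgeR adjusted p = 0.799).

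The spread between control libraries went with gene length. Control 3 was the highest library for 12 of the 16 genes with under 2500 bases of exon, and for 4 of the 23 longer ones. Control 1 was the lowest for 8 of those 16. Across the 39 genes, the deviation of control 3 from the mean of the 8 libraries had a Pearson r of -0.678 with log10 exon length. The r was 0.392 for control 1, 0.28 for control 4 and 0.128 for control 2. The genes share each library, so no test was made. Among all genes of at least 5 CPM, the median deviation of control 4 was -0.108 in the shortest class and 0.15 in the longest. Those of control 1 were -0.154 and 0.122. With an offset for exon length in each library, an alternative chosen after seeing the data, 35 of the 39 still had fitted differences below 0 and 0 were called, with a median of -0.142. Mki67, the second longest of the 39, went from -0.18 ± 0.14 to -0.078 ± 0.088, and Ube2c, the shortest, from -0.28 ± 0.17 to -0.36 ± 0.11 (edgeR adjusted p = 0.141). Rrm2 went to -0.76 ± 0.17 (edgeR adjusted p = 0.0651). Under the same offset, 6 of the 39 had an unadjusted p under 0.05, beside 1 without it, where 17.2% of all genes had one under the offset, so the 6 are near the background. The part of fragment length or RNA quality in the length pattern was not tested.

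**Figure D5:**
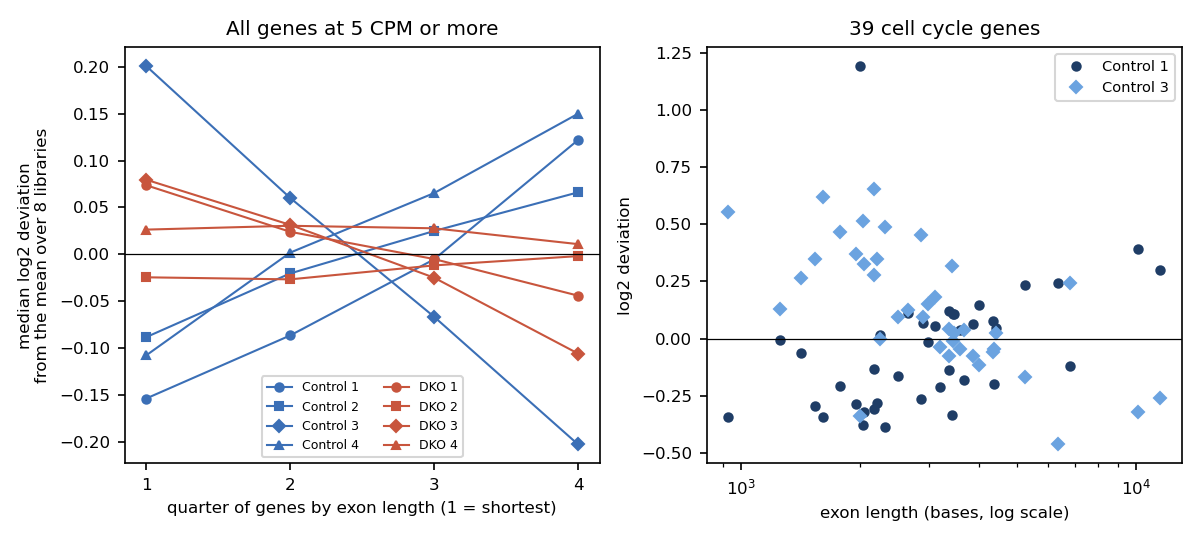
Left: median log2 deviation from the mean of the 8 libraries for genes of at least 5 CPM, by 4 equal classes of exon length, 1 line per library. Right: log2 deviation of the 39 genes in controls 1 and 3 against exon length (log scale). Control 3 runs from 0.201 in the shortest class to -0.203 in the longest, and controls 1, 2 and 4 run the other way.

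Another 163 genes of the same pathways, listed by function and not by how they moved, gave 160 tested and 0 called (edgeR), where 1.26% of all genes were called. Of these 160, 5 were higher and 4 lower in DKO at an unadjusted p under 0.05, where 8.43% of all genes were higher and 6.98% lower. DESeq2 called 2, Cdkn1b and Impdh1, both higher in DKO, and limma-voom with sample weights called 5, these and Gas1, Prc1 and Smc4. Over all genes these tools called 6.05% and 9.77%, larger shares than among the 160. Fitted differences were below 0 for 117 of the 160, where 53.1% of all genes were below 0, and the count has no test. Their median was -0.103, beside -0.0205 over all genes. The spindle, kinetochore and cytokinesis list had a median log2 fold change of -0.166, with 48 of 49 below 0 and 0 called. The 3 with the smallest adjusted p were Cks2 (a CDK subunit; -0.53 ± 0.20, adjusted p = 0.226), Prc1 (a bundler of midzone microtubules; -0.33 ± 0.13, 0.238) and Cenpi (a kinetochore protein; -0.29 ± 0.12, 0.262), all by edgeR. Cenpi was lower in every DKO library than in every control. It was the only 1 of the 160, where 3.54% of all genes had controls above without overlap. Bub3, Zwint, Prc1, Kif4, Ncaph, Cks1b and Cks2 were lower in all 3 libraries with low title numbers than in the other 5. Of all genes tested, 18.2% split in either direction. With a block for the run of title numbers, the log2 fold change was -0.378 for Cks2 and -0.25 for Prc1. With the 5 libraries of higher title numbers alone, the values were -0.518 and -0.337.

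Origin licensing and replication fork genes had 27 of 37 below 0, a median of -0.0481 and 0 called. Chaf1a (-0.17 ± 0.098), a histone chaperone of the fork, Gins1 (-0.31 ± 0.19), a part of the active helicase, and Dbf4 (-0.23 ± 0.14), the partner of a kinase that fires origins, had the smallest adjusted p (0.444 to 0.492, edgeR). Dbf4, Gins3 and Orc1 were lower in all 3 libraries with low title numbers than in the other 5. Of all genes tested, 18.2% split in either direction. Nucleotide supply genes had 8 of 12 above 0, a median of 0.112 and 0 called. Impdh1, an enzyme of guanine nucleotide synthesis, stood at 72.4, 84.9, 94.6 and 79.2 CPM in controls and at 114, 100, 106 and 109 CPM in DKO. Every DKO library was above every control, where 5.7% of all genes had DKO above without overlap. The log2 fold change of Impdh1 was 0.37 ± 0.10 with an adjusted p of 0.113 (edgeR), and 0.0227 in DESeq2. Its relative Impdh2 had a log2 fold change of 0.19 ± 0.089 (edgeR adjusted p = 0.362).

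Other CDK inhibitors and genes of cell cycle exit were split, with 10 above 0 and 13 below, a median of -0.0241 and 0 called. Cdkn2a, Btg1, Btg2, Btg3, Gadd45b, Gadd45g, Plk2, Plk3 and Mdm2 were lower in all 3 libraries with low title numbers than in the other 5. Gas1 and Ccng1 were higher in all 3, where 18.2% of all genes split in either direction. Btg2 averaged 91.8 CPM in the 3 and 325 CPM in the other 5. Cdkn1b, which encodes p27, the inhibitor known to build up as granulosa cells luteinise, stood at 113, 91.6, 98.4 and 101 CPM in controls and at 251, 218, 137 and 111 CPM in DKO. DKO 1, 2 and 3 were above every control, DKO 4 was inside the control range, and DKO 1 and 2 were highest. The mean of Cdkn1b was 101 ± 8.87 CPM in controls and 179 ± 66.05 CPM in DKO (SD, n = 4 each), with a log2 fold change of 0.83 ± 0.23 and an adjusted p of 0.13 (edgeR). DESeq2 gave it an adjusted p of 0.0196, and with the 5 libraries of higher title numbers alone the log2 fold change of Cdkn1b was 0.38 (edgeR adjusted p = 0.322). Gas1, a growth arrest gene, had a log2 fold change of 0.67 ± 0.24 (edgeR adjusted p = 0.207) and was likewise highest in DKO 1 and 2, at 113 and 144 CPM. Control 1, at 82.8 CPM, was also above all 5 libraries of higher title numbers, and with those 5 alone the log2 fold change of Gas1 was 0.40 (edgeR adjusted p = 0.353). Sesn2, a stress-induced inhibitor of growth signalling, had one of 0.25 ± 0.13 (edgeR adjusted p = 0.393).

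Other E2F and DREAM factors had 12 of 17 below 0, a median of -0.122 and 0 called, with Lin37 (0.30 ± 0.15), E2f4 (-0.31 ± 0.17) and Tfdp1 (-0.15 ± 0.082) showing the smallest adjusted p (0.381 to 0.424, edgeR). E2F4 and LIN37 belong to the complex that silences cell cycle genes in resting cells, and their fitted differences had opposite signs. E2f4 stood at 57.1 to 60.1 CPM in the 3 libraries with low title numbers. In the other 5 it stood at 75.4 to 100.8 CPM. Lin52 and Mybl2 were also lower in all 3, where 18.2% of all genes split in either direction. Mitotic entry, checkpoint and APC/C genes had 13 of 22 below 0, a median of -0.0242 and 0 called. The checkpoint kinase gene Chek2 (0.40 ± 0.14), the ubiquitin ligase gene Btrc (0.20 ± 0.086) and the Cdk1-inhibiting kinase gene Pkmyt1 (-0.44 ± 0.22) had the smallest adjusted p (0.203 to 0.386, edgeR).

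Cell type markers varied between libraries beside these genes. All 10 granulosa markers were present, with 0 called and Foxl2 nearest the threshold (0.58 ± 0.14, edgeR adjusted p = 0.0716). Luteal markers summed to 8640 to 15260 CPM in controls and 16560 to 22030 CPM in DKO, without overlap. Of the 7, 2 were called higher, where 0.759% of all genes were: Ptgfr (2.36 ± 0.32, adjusted p = 0.0173) and Hsd3b1 (0.91 ± 0.18, 0.0478, both edgeR). Star, also of this list, had a log2 fold change of -0.0068 ± 0.52 (edgeR adjusted p = 0.997). It averaged 914.5 CPM in the 3 libraries with low title numbers and 2815 CPM in the other 5. Oocyte markers summed to 180, 609, 443 and 537 CPM in controls and to 181, 219, 575 and 373 CPM in DKO, lowest in the 3 libraries with low title numbers, which are also the 3 with the lowest Ccne1. Neutrophil markers, present at 4.89 to 27.0 CPM in controls and 2.92 to 4.56 CPM in DKO, had 5 of 5 tested below 0 and 0 called, with S100a9 nearest (-2.41 ± 0.70, edgeR adjusted p = 0.14). Surface epithelium markers summed to 500 CPM in control 1, 312 CPM in DKO 2 and 163 CPM in DKO 1, beside 79.05 to 111 CPM elsewhere. Each of these 5 markers was higher in all 3 libraries with low title numbers than in the others. Of all genes tested, 18.2% split in either direction. Endothelial markers had 9 of 9 tested above 0, with a median log2 fold change of 0.366, and smooth muscle markers 6 of 7 below 0, with a median of -0.559. Of these and of theca, erythroid and leukocyte markers 0 were called, and the endothelial marker Cldn5, annotated on 2 sequences, was at 0 throughout. The part of these cell types in the levels of the cell cycle genes was not tested. Without control 1 and DKO 2, 33 of the 39 cell cycle genes had fitted differences below 0, 0 were called and the median was -0.139. With the 5 libraries of higher title numbers alone, which leaves out DKO 1 and 2 and control 1, 34 of the 39 were below 0, 0 were called and the median was -0.127.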

How the data were processed

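Gene expression was measured by RNA sequencing of whole ovaries, 4 control and 4 DKO libraries. Per the labels' protocols, libraries were made with a stranded kit for messenger RNA. The authors deposited a raw count for each gene in each library. Per the file headers, featureCounts (Subread 1.5.2) counted reads over exons by gene ID in reverse-stranded mode on RefSeq's GRCm38.p5 annotation. STAR 2.4.2a, bcl2fastq 2.17.1.14, edgeR 3.12.0, 2 versions of Trimmomatic (0.33, 0.36) and build GRCm38.p3 are further entries of the submitters' processing notes, with no role given. Symbols came from a RefSeq table and matched 40290 of 41591 IDs (96.9%).

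Genes were filtered with filterByExpr (minimum count 10), scaled by TMM (0.943 to 1.06) and tested with edgeR 4.0.16 in R 4.3.3 by the quasi-likelihood F-test, robust and two-sided, with no covariate, and p-values were adjusted by Benjamini-Hochberg over the 16870 genes. The biological coefficient of variation was 0.281. SE is the size of the log2 fold change over the root of F. CPM carry the TMM factors, and RPKM divide them by the exon length of the tables. DESeq2 1.42.0 and limma 3.58.1 gave alternatives, and Python 3.11.15 prepared the tables. The procedure was tested on simulated data. No 2 libraries of a group agreed within sampling noise (reduced chi-square 22.9 to 129), and all 8 were used. The design text counts mice, and p-values measure the spread between these libraries.

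Members, roles, pathway and marker lists were chosen with earlier results of these data known. By the naming rule, every sample's value is given for 18 of the genes and for the 2 of each role with the smallest adjusted p, and of each pathway list the 3 genes with the smallest adjusted p are named, with Cdkn1b and Rrm2b. Other genes, the ratios, the motifs, the 4 promoters, the limit of 2500 bases, the split by title number, the fit without control 1 and DKO 2 and the length offset were chosen after values were seen.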

Additional observations from a re-analysis of the deposited data

Results flagged for a closer look

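Within groups of 4, a library was set apart when its gap to the next exceeded Dixon's 95% critical share of the group's range. Of 114 groups (57 genes in 2 genotypes), 4 met this, where chance gives about 1 in 20, or 5.7. Pcna reached 107.3 CPM in control 3, beside 97.6 to 98.6 CPM in the other controls. Cdk2 stood at 43.07 CPM in control 4, beside 50.1 to 51.4 CPM. Cdkn1c stood at 26.91 CPM in control 1, beside 8.66 to 9.73 CPM. Pkmyt1, an inhibitory kinase of mitotic entry, stood at 18.25 CPM in DKO 3, beside 13.1 to 13.5 CPM in the other DKO libraries.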

How the results depend on the processing

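Genes called over the whole table numbered 212 with edgeR, 1067 with DESeq2, 1649 with limma-voom and sample quality weights, 526 with a block for the run of title numbers, 97 without control 1 and DKO 2, and 2 to 506 when each library was left out in turn (2 without control 2, 506 without control 3). With the replicate number as a block, 743 genes were called, and of the pathway genes 2, Btg2 and Plk3, both also split by title number. Deviations of same-numbered libraries correlated at 0.188, -0.389, 0.352 and 0.569. Those of differently numbered libraries ran from -0.514 (control 1 with DKO 3) to 0.683 (control 1 with DKO 2). These values do not settle whether the numbers pair the samples. Of the 39 cell cycle genes, 1 (Rrm2) was called with DESeq2 and with limma-voom, and 0 to 1 when a library was left out (Rrm2 without control 1). Pathway genes called were 2 with DESeq2, 5 with limma-voom and 0 to 1 with a library left out (Impdh1 without control 3). Over all alternatives, 28 to 36 of the 39 had fitted differences below 0, 28 without control 3. The median of the 3 CDK inhibitors was -0.309, but -0.0288 with limma-voom, 0.122 with the 5 libraries of higher title numbers alone and 0.177 without control 1 and DKO 2, and ran from -0.349 to 0.165 with 1 library left out (0.165 without control 1), being the median of 3 genes; the limma-voom value is that of Cdkn1c itself, which was above 0 in each fit named with a median above 0. With 1 library left out, the median of the 4 CDKs ran from -0.176 to -0.0464, that of S phase genes from -0.133 to -0.0349 and that of mitosis genes from -0.193 to -0.0615. Of 1197 pairs of an alternative and 1 of 57 genes (the 39 and those the naming rule took from the pathway lists, without Smc4, Btg2 and Plk3), 1187 kept their side of the threshold and 10 passed it, in 5 genes. Counts were 195 or more in every library for the 39 genes, so the spread between libraries limits precision more than counting does.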
